A study of Mus musculus with 12 samples.

Results

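The 38 genes described here encode enzymes and regulators that remove superoxide and peroxides or run the thioredoxin and glutathione systems. They were chosen by gene symbol among the 55401 genes of the count files. They comprise 10 peroxidases (Prdx1 to Prdx6, Gpx1, Gpx3, Gpx4 and Cat), 3 superoxide dismutases, 8 thioredoxin and glutaredoxin genes, 3 genes of glutathione synthesis and recycling, 7 glutathione transferases, 3 genes around the regulator NRF2, and a last group of 4 (Selenow, Selenop, Park7 and Msra). Adult mouse hearts of genotype WT or Rpl3l-/- (KO) were studied as total poly(A) RNA (Input) and as poly(A) RNA from ribosomes captured through an HA tag (IP). Each of the 4 groups, WT Input, KO Input, WT IP and KO IP, held 3 libraries, which the series describes as biological triplicates. Hearts for IP received cycloheximide, which halts elongating ribosomes, when they were excised. That treatment and the detergent homogenate are stated for IP. Input RNA was extracted with TRIzol and IP RNA on RNeasy columns, so fraction and extraction cannot be told apart. The labels give no strain and no age beyond adult. Neither the cells that carry the tag nor any sharing of a heart between fractions is stated. The values are counts of nanopore direct cDNA reads per gene, and levels are given in CPM, counts scaled to library size with TMM factors (trimmed mean of M values).

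Superoxide, which leaks from the respiratory chain of the mitochondria that fill cardiomyocytes, is turned into hydrogen peroxide by superoxide dismutases. Catalase, the peroxiredoxins and the glutathione peroxidases then reduce peroxides, the peroxiredoxins mostly with electrons from thioredoxin and the glutathione peroxidases with electrons from glutathione. Thioredoxin reductases and glutathione reductase recharge these carriers from NADPH, and several of the enzymes carry selenocysteine, an amino acid inserted at a UGA codon that would otherwise stop translation. The transcription factor NRF2, held low by KEAP1, drives many of these genes.

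Library totals ran from 169359 counts in KO Input replicate 3 to 710868 in KO IP replicate 2. Before the TMM factors are applied, 3 reads were worth 17.7 CPM in the former and 4.22 CPM in the latter. Rpl3l, the deleted gene, lay at 212, 295 and 266 CPM in WT Input and at 65.5, 25.8 and 49.0 CPM in KO Input, where 18, 7 and 9 reads were still counted. In WT IP it lay at 258, 259 and 263 CPM and in KO IP at 2.23, 2.50 and 7.95 CPM. The KO libraries were below the WT libraries in both fractions, with adjusted p = 1.77e-05 in Input and 9.17e-12 in IP (edgeR quasi-likelihood test). Globin transcripts, which come from red cells, took from 1.70% to 17.3% of the counts, with the highest share in WT IP replicate 2. Summed markers of cardiomyocytes (10 genes) ran from 57894 to 70295 CPM over all libraries. Of these, Actc1, the cardiac actin gene, was listed at 0 in every library, as were the endothelial marker Cav1 and the fibroblast marker Tcf21, so a 0 in these files is given as listed and not read as absence. In such bulk RNA, fewer cells of a type and less RNA per cell cannot be told apart.

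Of the 38 genes, 33 passed the filter on low counts and were tested among 6596 genes. The 5 others were Txnip, Gclc, Gclm, Keap1 and Msra. Txnip, which encodes an inhibitor of thioredoxin, was listed at 0 in all 12 libraries. Gclc and Gclm encode the catalytic and the modifier subunit of the enzyme that makes the first glutathione precursor, and had 54 and 12 reads in all. Msra, a methionine sulfoxide reductase, had 39 reads. Keap1 had 5, 11 and 7 reads in WT Input, 2, 0 and 0 in KO Input, 3, 3 and 5 in WT IP and 2, 3 and 13 in KO IP, counts too low for a test under this filter. A fit without a count filter tested 37 of the 38 genes, Txnip being the exception, and called none of them between genotypes in Input or in IP.

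Compared per kilobase of the longest annotated transcript, the mean level in WT Input was highest for Gpx4 at 1785 CPM per kb, followed by Sod1 at 1370 and Prdx5 at 616. Mgst3 (537 CPM per kb), Selenow (452) and Prdx1 (397) came next. Division by length lowers long transcripts on this scale, which counts of reads that can each span a transcript may not need: Sod2, at 812 CPM, was at 138 CPM per kb. Genes that recharge thioredoxin and glutathione were low on the same scale, with Txnrd2 at 16.1, Txnrd1 at 11.6 and Gsr at 11.0 CPM per kb. The extracellular dismutase Sod3 lay at 7.30 and Nfe2l2, the gene of NRF2, at 21.8 CPM per kb. Together the 38 genes made up 0.978% to 1.19% of scaled counts in Input and 0.808% to 0.975% in IP. On this scale each Input library lay above every IP library, the closest being KO Input replicate 3 at 9779 CPM and KO IP replicate 1 at 9754 CPM. That order depends on the TMM factors, which were 0.8731 in WT Input replicate 3 and 1.104 in KO IP replicate 3. As shares of unscaled library totals the fractions overlap across genotypes, where WT Input replicate 3 lies below KO IP replicates 1 and 3. Within each genotype every Input library stays above every IP library on the unscaled shares as well.

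The first comparison asked whether loss of Rpl3l changed these genes. None of the 33 tested genes was called at an adjusted p under 0.05 between KO and WT in Input, where 0.182% of all tested genes were called, or in IP, where 0.0910% were (edgeR quasi-likelihood test, Benjamini-Hochberg adjustment). DESeq2 also called 0 in either fraction. At an unadjusted p under 0.05, 3 of 33 passed in Input and 0 in IP, against 7.11% and 5.17% of all tested genes. The median log2 fold change of the 33 genes was -0.09 in Input and 0.09 in IP, beside -0.01 and -0.00 over all tested genes. For 26 genes in Input and 30 in IP the 95% interval of the fold change lay within a 2-fold change in either direction, so for these a larger change is outside the interval. For the others, among them Gsta4, Txnrd1, Nqo1 and Gsr in Input, the interval reached past a 2-fold change, so a change of that size is not excluded.

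The largest genotype difference in Input was that of Gsta4, a glutathione transferase that conjugates the lipid peroxidation product 4-hydroxynonenal. Its level was 97.7, 82.5 and 132 CPM in WT Input and 58.2, 70.0 and 16.3 CPM in KO Input, the lowest value resting on 3 reads in the smallest library. The KO libraries lay below the WT libraries without overlap, but the log2 fold change of -1.0 ± 0.32 (SE, n = 3 and 3) had an adjusted p of 0.439 in edgeR, and without KO Input replicate 3 it was -0.68 with an adjusted p of 0.764. In IP the gene lay at 90.6, 129 and 104 CPM in WT and at 114, 126 and 113 CPM in KO, and these groups overlapped.

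Gpx4, which reduces phospholipid hydroperoxides in membranes, was at 1597, 1810 and 1920 CPM in WT Input and at 2628, 2323 and 1914 CPM in KO Input. The groups overlapped, and the log2 fold change of 0.37 ± 0.17 (SE, n = 3 and 3) had an adjusted p of 0.677 (edgeR). Gstp1, a cytosolic glutathione transferase, was at 355, 243 and 270 CPM in WT Input and at 258, 217 and 141 CPM in KO Input, again with overlap and an adjusted p of 0.688 (edgeR). Gsta4, Gpx4 and Gstp1 were the genes with an unadjusted p under 0.05 in Input.

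Among the other roles, the smallest p in Input belonged to Sod1, the cytosolic copper and zinc dismutase (log2 fold change -0.18 ± 0.15), Glrx5, a mitochondrial glutaredoxin of iron-sulfur cluster assembly (0.36 ± 0.21), Gsr, glutathione reductase (-0.15 ± 0.46), Nqo1, an NRF2 target that reduces quinones (-0.40 ± 0.36), and Park7, a redox-sensitive protein also known as DJ-1 (-0.08 ± 0.20). None passed the edgeR test, and their adjusted p values ran from 0.755 for Glrx5 to 0.961 for Gsr. In IP, the smallest p of all 33 genes was that of Txn1, cytosolic thioredoxin, at 110, 131 and 128 CPM in WT and 181, 132 and 168 CPM in KO. Every KO IP library lay above the WT IP libraries, by a margin of 1 CPM at the closest pair of rounded values, and the adjusted p was 0.944 (edgeR). Nfe2l2 stood at 62.0, 70.7 and 28.9 CPM in WT Input and at 76.4, 73.6 and 65.3 CPM in KO Input, with an adjusted p of 0.860 (edgeR).

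**Figure D1:**
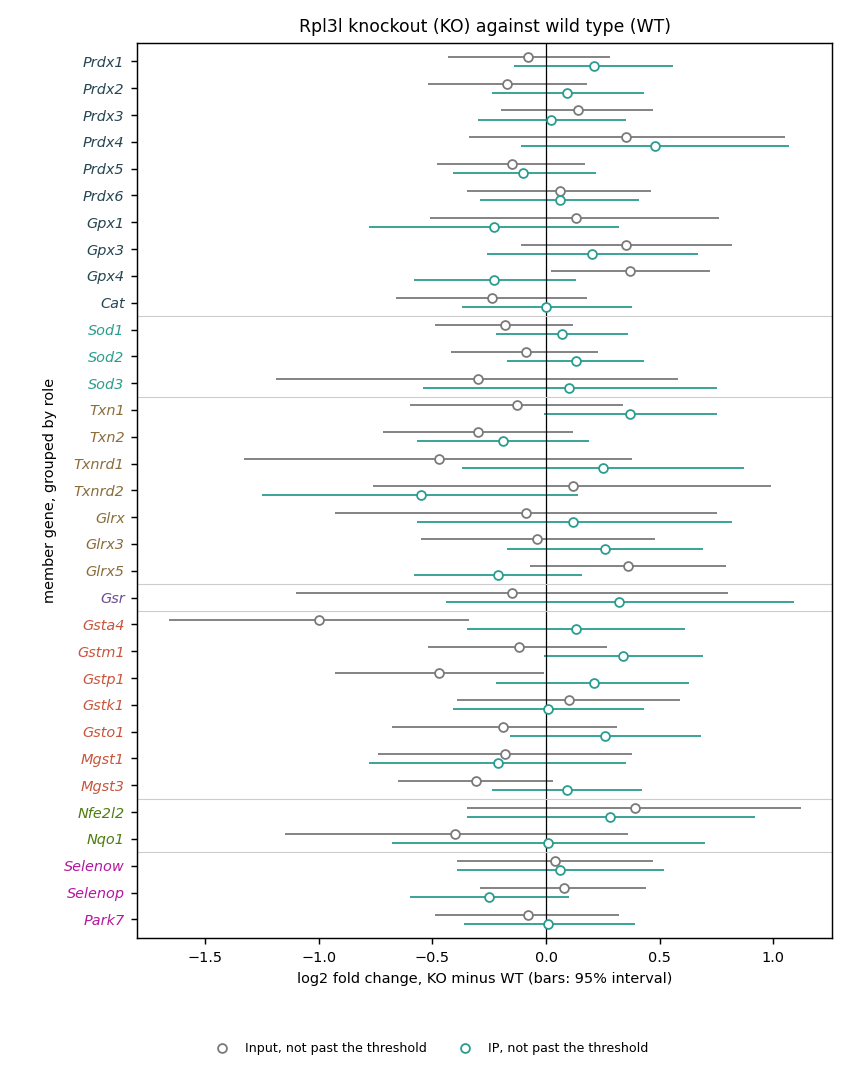
Log2 fold change of KO over WT (horizontal axis) for the 33 tested genes grouped by role (vertical axis), in Input and in IP, with 95% intervals from the edgeR fit on 3 libraries a group. No gene is called, most intervals cross 0, and the estimate farthest from 0 is that of Gsta4 in Input at -1.0.

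The second comparison set RNA in the ribosome pulldown against total RNA within each genotype. In WT hearts, Sod2 rose in IP, and Prdx1, Prdx3, Gpx3, Gpx4, Gstp1, Mgst1, Mgst3 and Selenow fell, so 9 of 33 genes were called, where 14.0% of all tested genes were (edgeR, adjusted p under 0.05). In the lower direction the count was 8 of 33, beside 8.67% of all tested genes, and in the higher direction 1 of 33, beside 5.37%. In KO hearts, Sod2 and Gsta4 rose and Prdx1, Prdx3, Gpx3, Gpx4, Mgst1, Selenow and Selenop fell, again 9 of 33, beside 16.4% of all tested genes, of which 6.64% were higher and 9.78% lower. Both genotypes share 7 of these genes. The share of all tested genes called in both genotypes is not given here, and both contrasts come from the same fit. The overlap is therefore a description. The median log2 fold change of the 33 genes was -0.18 in WT and -0.12 in KO, beside 0.02 and 0.01 over all tested genes.

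Markers of adipocytes and, in part, of endothelial cells were lower in IP. The 8 adipocyte markers summed to 151 to 912 CPM in WT Input, 239 to 524 in KO Input, 17.0 to 82.5 in WT IP and 29.0 to 66.2 in KO IP, and the 3 of them that were tested (Cfd, Car3 and Ucp1) fell in both genotypes. The 8 endothelial markers summed to 2164 to 2941 CPM in WT Input and 2632 to 3383 in KO Input, against 1517 to 2050 in WT IP and 1503 to 1623 in KO IP. Of 7 tested endothelial markers, Egfl7 fell in WT and Egfl7, Cdh5 and Fabp4 fell in KO. In each genotype 5 of the 7 had a negative log2 fold change and 2 a positive one. The positive ones were Pecam1 (0.39) and Emcn (0.37) in WT and Pecam1 (0.35) and Tie1 (0.36) in KO, none of them called. The summed levels of the other lists overlapped between fractions. Those of the 8 erythroid markers ran from 17520 to 158623 CPM in WT Input and from 21918 to 194414 in WT IP. In KO they ran from 16061 to 45626 CPM in Input and from 15515 to 69325 in IP. Of the 7 tested erythroid markers, Bpgm rose in WT (log2 fold change 1.89, adjusted p = 0.0127, edgeR), although its libraries overlapped. The 9 fibroblast markers summed to 2631 to 3280 CPM in Input and 2545 to 3731 in IP, with Col3a1 lower in KO, the 8 macrophage markers to 507 to 902 and 638 to 861, and the 6 smooth muscle and pericyte markers to 589 to 745 and 680 to 907, with none called. Within the cardiomyocyte list, the myoglobin gene Mb (log2 fold change -1.51 in WT and -1.38 in KO) and Ckm (-0.47 and -0.59) fell in both genotypes, Myh6 fell and Atp2a2 rose in WT, and Ryr2 and Tnnt2 rose in KO. The part of these shifts in the changes of the antioxidant genes was not tested.

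**Figure D2:**
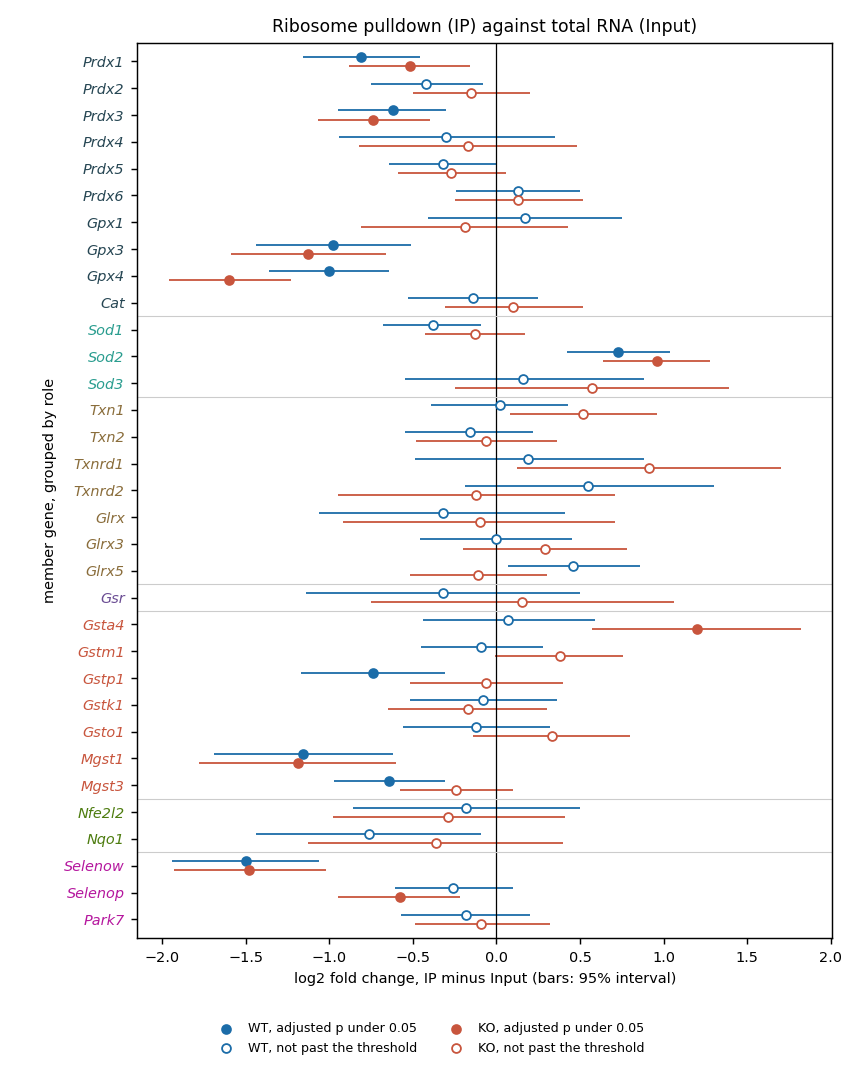
Log2 fold change of IP over Input (horizontal axis) for the 33 tested genes grouped by role (vertical axis), in WT and in KO hearts, with 95% intervals from the edgeR fit on 3 libraries a group and called genes marked. Selenow at -1.50 in WT and Gpx4 at -1.60 in KO lie farthest to the left, Sod2 lies right of 0 in both genotypes, and Gsta4 is at 1.20 in KO and near 0 in WT at 0.07.

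Of the 10 peroxidases, the same 4 fell in IP in both genotypes: Gpx3, Gpx4, Prdx1 and Prdx3. Gpx4 (ENSMUSG00000075706.10, chr10:80047166-80056439, plus strand, GRCm38) was at 1597, 1810 and 1920 CPM in WT Input and at 1027, 760 and 872 CPM in WT IP. In KO hearts it went from 2628, 2323 and 1914 CPM in Input to 937, 661 and 685 CPM in IP. All 6 IP libraries lay below all 6 Input libraries. The log2 fold change of IP over Input was -1.0 ± 0.17 in WT (SE, n = 3 and 3, adjusted p = 0.000212 in edgeR) and -1.60 ± 0.18 in KO (adjusted p = 5.11e-07). The difference between the genotypes, -0.59 ± 0.24, did not pass its own test (adjusted p = 0.623), in a contrast that called 0.0910% of tested genes and 0 of these 33.

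Gpx3 (ENSMUSG00000018339.11, chr11:54902453-54910377, plus strand) encodes the glutathione peroxidase secreted into plasma. It was at 581, 438 and 658 CPM in WT Input and 256, 288 and 305 CPM in WT IP, and at 608, 828 and 696 CPM in KO Input and 508, 264 and 221 CPM in KO IP. IP was below Input without overlap in each genotype, although KO IP replicate 1 stood well above the other two KO IP libraries. The log2 fold change was -0.98 ± 0.23 in WT (adjusted p = 0.00396, edgeR) and -1.13 ± 0.23 in KO (adjusted p = 0.00113).

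Prdx3 (ENSMUSG00000024997.7, chr19:60864051-60874556, minus strand) encodes the peroxiredoxin of the mitochondrial matrix. Its level was 431, 497 and 478 CPM in WT Input against 303, 296 and 313 CPM in WT IP, and 484, 453 and 620 CPM in KO Input against 299, 279 and 351 CPM in KO IP. The fractions did not overlap in either genotype, with log2 fold changes of -0.62 ± 0.16 in WT (adjusted p = 0.00873, edgeR) and -0.74 ± 0.16 in KO (adjusted p = 0.00251). The WT call was lost with library totals in place of TMM and with the trend on transcript length removed, where the adjusted p reached 0.0972.

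Prdx1 (ENSMUSG00000028691.12, chr4:116685544-116700822, plus strand), the abundant cytosolic peroxiredoxin, was at 996, 870 and 867 CPM in WT Input and 481, 552 and 525 CPM in WT IP. In KO it was at 1045, 906 and 620 CPM in Input and 689, 521 and 599 CPM in IP. The WT fractions were separate, with a log2 fold change of -0.81 ± 0.17 (adjusted p = 0.00178, edgeR), whereas those of KO overlapped, with -0.52 ± 0.17 (adjusted p = 0.0396). The KO call was lost in 8 of 15 alternative analyses, among them the replicate block, library totals and leaving out KO Input replicate 1 or 2 or KO IP replicate 2 or 3, with adjusted p values of up to 0.257.

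The other 6 peroxidases were not called in either genotype. Prdx2 had log2 fold changes of -0.42 in WT and -0.15 in KO, Prdx5 of -0.32 and -0.27, and Prdx6, the peroxiredoxin with a single active cysteine, of 0.13 in both. Prdx4, which resides in the endoplasmic reticulum, had -0.30 and -0.17, and catalase -0.14 and 0.10. Gpx1, the cytosolic glutathione peroxidase, had 0.17 in WT and -0.19 in KO.

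Sod2 was the only gene of the set that rose in IP in both genotypes. It encodes the manganese dismutase of the mitochondrial matrix (ENSMUSG00000006818.5, chr17:13006846-13040063, plus strand). Levels were 841, 858 and 735 CPM in WT Input and 1313, 1471 and 1271 CPM in WT IP, and 764, 858 and 653 CPM in KO Input and 1537, 1374 and 1529 CPM in KO IP. Every IP library exceeded every Input library. The log2 fold change was 0.73 ± 0.15 in WT (adjusted p = 0.00140, edgeR) and 0.96 ± 0.15 in KO (adjusted p = 9.04e-05), and both calls were kept in all 15 alternative analyses. Sod1, at 848, 865 and 921 CPM in WT Input and 645, 680 and 695 CPM in WT IP, missed the threshold (log2 fold change -0.38 ± 0.14, adjusted p = 0.0759, edgeR), and in KO its fractions overlapped. Sod3 had few reads (166 in all) and log2 fold changes of 0.16 in WT and 0.57 in KO, neither called.

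None of the 7 tested thioredoxin and glutaredoxin genes was called between fractions. DESeq2 called none either, and at an unadjusted p under 0.05 there was 1 in WT and 2 in KO, where 27.8% and 29.3% of all tested genes passed. The smallest p in WT was that of Glrx5, at 141, 151 and 144 CPM in Input and 221, 188 and 192 CPM in IP, without overlap (log2 fold change 0.46 ± 0.19, adjusted p = 0.107, edgeR). In a fit of only the WT libraries its adjusted p was 0.0481, and in the other alternatives it lay between 0.0617 and 0.276. In KO it lay at 197, 206 and 152 CPM in Input and 216, 139 and 173 CPM in IP. The smallest p in KO was that of Txn1, at 120, 103 and 109 CPM in Input and 181, 132 and 168 CPM in IP, also without overlap (0.52 ± 0.21, adjusted p = 0.0986). With the length trend removed the Txn1 difference was 0.94 with an adjusted p of 0.00229, and with library totals 0.66 with an adjusted p of 0.0435. Mitochondrial thioredoxin Txn2 had log2 fold changes of -0.16 in WT and -0.06 in KO, Glrx3 of -0.00 and 0.29, and Glrx of -0.32 and -0.10.

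Both thioredoxin reductases were thinly covered. Txnrd1, the cytosolic enzyme, had 270 reads in all and log2 fold changes of 0.19 ± 0.33 in WT and 0.91 ± 0.38 in KO (adjusted p = 0.108, edgeR). Txnrd2, the mitochondrial enzyme, had 293 reads and 0.55 ± 0.36 and -0.12 ± 0.40. Gsr, the tested gene of glutathione recycling, was at 21.4, 37.7 and 28.9 CPM in WT Input and at 25.5, 29.5 and 15.1 CPM in WT IP, with overlap and no call in either genotype.

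Of the 7 glutathione transferases, Mgst1, Mgst3 and Gstp1 fell in WT, and in KO Mgst1 fell and Gsta4 rose. Mgst1 (ENSMUSG00000008540.11, chr6:138140316-138156755, plus strand) encodes a transferase of the endoplasmic reticulum and outer mitochondrial membranes. Its levels were 222, 116 and 138 CPM in WT Input and 65.1, 80.2 and 69.0 CPM in WT IP, and 186, 125 and 103 CPM in KO Input and 37.9, 68.7 and 73.1 CPM in KO IP. Fractions did not overlap, and the log2 fold change was -1.16 ± 0.26 in WT (adjusted p = 0.00340, edgeR) and -1.19 ± 0.29 in KO (adjusted p = 0.00478). The calls depended on single libraries: the WT call was lost without WT Input replicate 1 (adjusted p = 0.0760) and the KO call without KO Input replicate 1 or with the length trend removed (adjusted p of up to 0.0835).

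Mgst3 (ENSMUSG00000026688.5, chr1:167371966-167393841, minus strand), a related membrane enzyme, was at 548, 710 and 511 CPM in WT Input and 351, 368 and 419 CPM in WT IP. In KO it was at 481, 523 and 419 CPM in Input and 419, 365 and 428 CPM in IP, and these overlapped. The log2 fold change was -0.64 ± 0.16 in WT (adjusted p = 0.00778, edgeR) and -0.24 ± 0.17 in KO (adjusted p = 0.354). The WT call was lost with the length trend removed, without WT Input replicate 2 and without WT IP replicate 1 (adjusted p of up to 0.254), and the difference between genotypes did not pass (adjusted p = 0.763).

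Gsta4 (ENSMUSG00000032348.6, chr9:78182774-78209349, plus strand) was at 58.2, 70.0 and 16.3 CPM in KO Input and at 114, 126 and 113 CPM in KO IP. The KO fractions were separate, with a log2 fold change of 1.20 ± 0.30 (adjusted p = 0.00718, edgeR), called in all 15 alternative analyses, between 0.88 and 1.69. In WT the fractions overlapped (0.07 ± 0.25, adjusted p = 0.885). The test of the genotype difference, 1.13 ± 0.40, gave an adjusted p of 0.547. The KO Input libraries that are low here are the same ones that enter the Input comparison of KO with WT above, so the 2 differences are not independent. Gstm1, Gstk1 and Gsto1 were not called in either genotype, with log2 fold changes from -0.17 to 0.38.

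Gstp1 (ENSMUSG00000060803.6, chr19:4035407-4037985, minus strand) shares 98.161% of bases over 707 aligned bases with the transcript of Gstp2, so reads may have been divided between them in counting. Gstp1 was at 355, 243 and 270 CPM in WT Input and 157, 219 and 145 CPM in WT IP, with a log2 fold change of -0.74 ± 0.21 (adjusted p = 0.0175, edgeR). Gstp2 went the other way, from 90.6, 56.6 and 70.6 CPM in WT Input to 141, 160 and 101 CPM in WT IP (0.89 ± 0.23, adjusted p = 0.0116). In KO, Gstp2 was at 61.9, 70.0 and 81.6 CPM in Input and 172, 124 and 137 CPM in IP (1.02 ± 0.26, adjusted p = 0.00719), while Gstp1 was at 258, 217 and 141 CPM in Input and 232, 177 and 197 CPM in IP and was not called.

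The share of Gstp2 in the reads of the pair was 18.9% to 20.8% in WT Input, 19.3% to 36.6% in KO Input, 41.1% to 47.4% in WT IP and 41.0% to 42.5% in KO IP. The sum of the pair overlapped between fractions in WT, with 446, 299 and 340 CPM in Input and 299, 380 and 246 CPM in IP. A fall of Gstp1 by itself is therefore uncertain. Its call in WT was also lost with the length trend removed and without WT Input replicate 1, WT IP replicate 1 or WT IP replicate 3 (adjusted p of up to 0.414).

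**Figure D3:**
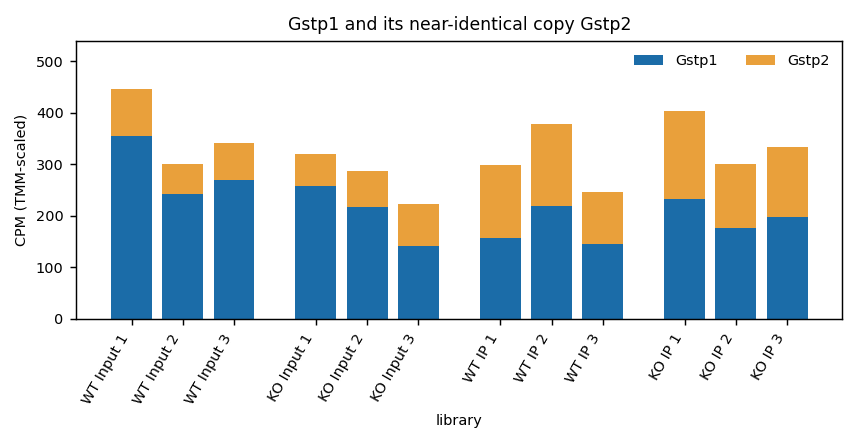
Level in CPM (vertical axis) of Gstp1 and of its near-identical copy Gstp2 in each of the 12 libraries (horizontal axis), 3 per group. Gstp2 bars are taller in all 6 IP libraries, from 101 to 172 CPM, than in all 6 Input libraries, from 56.6 to 90.6 CPM, while Gstp1 is lower in WT IP than in WT Input.

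Neither tested gene around NRF2 was called between fractions. Nfe2l2 had log2 fold changes of -0.18 ± 0.33 in WT and -0.29 ± 0.34 in KO. Nqo1 was at 57.2, 91.9 and 51.4 CPM in WT Input and 59.4, 32.8 and 25.2 CPM in WT IP, with overlap and an adjusted p of 0.121 (edgeR), and in KO its adjusted p was 0.557. Without WT IP replicate 1, Nqo1 passed in WT (-1.20, adjusted p = 0.0337), while its adjusted p lay between 0.103 and 0.494 in the other alternatives.

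In the last group, Selenow fell in both genotypes, Selenop fell in KO, and Park7 was not called (log2 fold changes -0.18 in WT and -0.09 in KO). Selenow (ENSMUSG00000041571.9, chr7:15917208-15922402, minus strand) encodes a small selenoprotein abundant in muscle. Its levels were 343, 344 and 311 CPM in WT Input and 133, 106 and 113 CPM in WT IP, and 360, 387 and 272 CPM in KO Input and 183, 87.4 and 110 CPM in KO IP. All IP libraries were below all Input libraries, and the log2 fold changes were -1.50 ± 0.21 in WT (adjusted p = 1.75e-05, edgeR) and -1.48 ± 0.22 in KO (adjusted p = 3.78e-05). With the length trend removed they were -0.98 and -0.88, both still called.

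Selenop (ENSMUSG00000064373.12, chr15:3268547-3280508, plus strand) encodes the plasma protein that carries selenium between tissues. It was at 448, 383 and 468 CPM in KO Input and 265, 340 and 254 CPM in KO IP, without overlap, with a log2 fold change of -0.58 ± 0.18 (adjusted p = 0.0256, edgeR). In WT, 469, 332 and 427 CPM in Input overlapped with 313, 324 and 392 CPM in IP (adjusted p = 0.348), and the genotypes did not differ by their own test (adjusted p = 0.840). The KO call was lost in 7 of 15 alternative analyses, among them those without KO Input replicate 1 or 3 or KO IP replicate 1 or 3 (adjusted p of up to 0.135). Exons of Ccdc152 lie opposite those of Selenop, and no source used here states whether counting was by strand. Ccdc152 had 182 reads against 1987 for Selenop and also fell in KO IP (-1.05 ± 0.36, adjusted p = 0.0494).

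**Figure D4:**
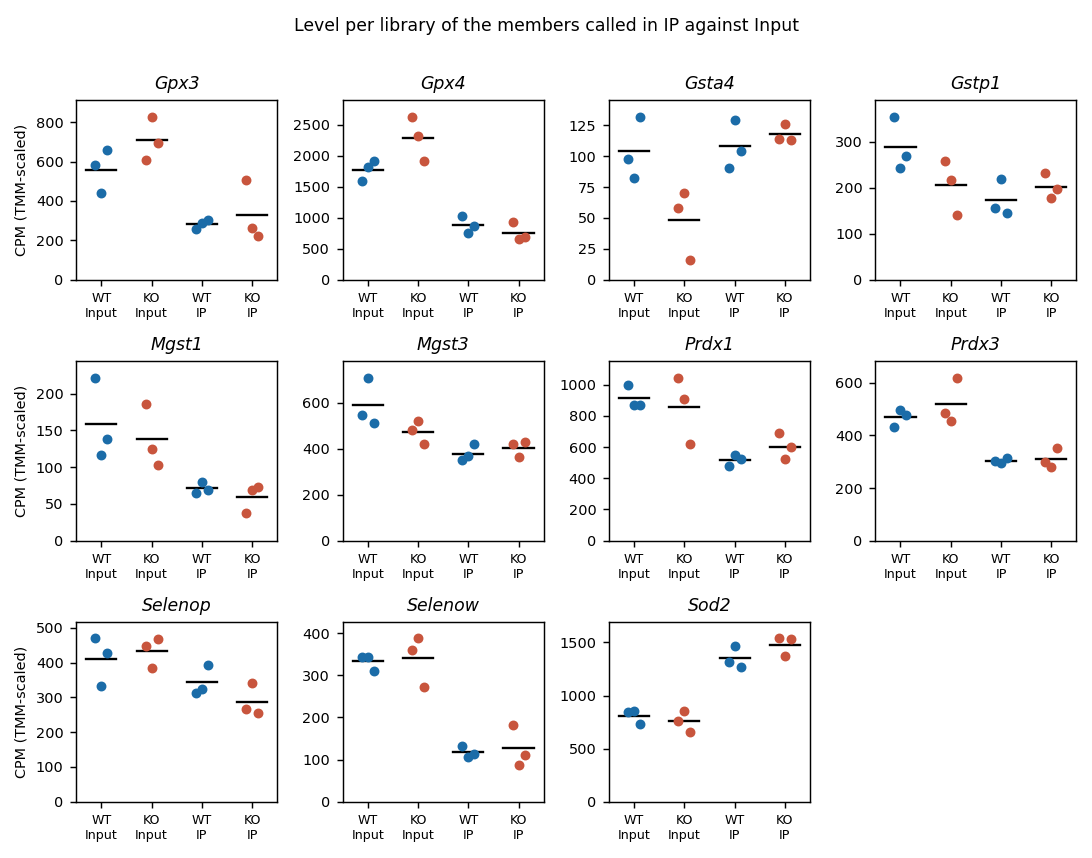
Level in CPM (vertical axes, each from 0) of the 11 genes called between IP and Input in either genotype, with 1 point per library and a line at the mean of each group of 3 (WT Input, KO Input, WT IP, KO IP). Sod2 is higher in every IP library than in every Input library, while Gpx4 and Selenow are lower in every IP library.

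Several of the genes that fell carry selenocysteine. In 7 of the 38 genes the annotation places a selenocysteine at an in-frame TGA, which is read through instead of ending the protein. Any part of these TGA codons in the differences between fractions was not tested. Their surroundings in the coding sequence are shown 5′ to 3′, taken from GENCODE M21 transcripts (GRCm38). The selenocysteine codon is in capitals, with up to 21 coding bases on each side, ending at the stop codon where that comes first. Selenow and Gpx4 come first as those of the 7 that fell most, Gpx3 fell in both genotypes and Selenop in KO, and Gpx1, Txnrd1 and Txnrd2 are the ones without a call.
Selenow: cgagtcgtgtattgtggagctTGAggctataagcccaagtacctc
Gpx4: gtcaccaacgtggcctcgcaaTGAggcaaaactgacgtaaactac
Gpx3: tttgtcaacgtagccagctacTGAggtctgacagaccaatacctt
Selenop: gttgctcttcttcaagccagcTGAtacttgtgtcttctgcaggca
Gpx1: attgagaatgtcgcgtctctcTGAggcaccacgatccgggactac
Txnrd1: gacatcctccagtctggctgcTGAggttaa
Txnrd2: gagcctactgtgactggttgcTGAggctaa

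The codon lies at chr7:15920464-15920466 on the minus strand in Selenow, and on the plus strand at chr10:80054737-80054739 in Gpx4, chr11:54907256-54907258 in Gpx3, chr9:108339451-108339453 in Gpx1, chr10:82896037-82896039 in Txnrd1 and chr16:18477772-18477774 in Txnrd2. In Selenop it is the first of 10 such codons, at chr15:3274848-3274850. Counted from the start codon of the longest coding transcript, selenocysteine is codon 13 of 88 in Selenow, 47 of 201 in Gpx1, 73 of 226 in Gpx3, 129 of 253 in Gpx4 and 59 of 380 for the first in Selenop. In both reductases it is the next-to-last codon of the protein, followed by 1 codon and the stop, at codon 612 of 613 in Txnrd1 and 526 of 527 in Txnrd2. The counts are per gene and do not tell which transcript the hearts held. In a transcript with a shorter coding sequence, as may hold for Gpx4, the codon can have another number.

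Of these 7 genes, 3 fell in IP in WT (Gpx3, Gpx4 and Selenow) and 4 in KO (with Selenop), and none rose, where 8.67% of all tested genes fell in WT and 9.78% in KO, and 5.37% and 6.64% rose. The median log2 fold change was -0.26 in WT and -0.58 in KO. Of the 26 tested genes without selenocysteine, 5 fell and 1 rose in WT with a median of -0.18, and 3 fell and 2 rose in KO with a median of -0.09. The annotation gives 24 genes with a selenocysteine codon, of which 18 were tested. Of those 18, 5 fell in WT, adding Selenok and Selenom to the 3, and 7 fell in KO, adding Selenok, Selenom and Msrb1 to the 4, with none higher in either genotype, to be read against the same shares of all tested genes. Their median log2 fold change was -0.32 in WT and -0.35 in KO. Selenok and Selenom, of the endoplasmic reticulum, fell by 0.74 and 1.38 on the log2 scale in WT and by 0.75 and 1.78 in KO, with adjusted p values from 0.00115 to 0.00591 (edgeR). The 11 others were not called in either genotype. Their log2 fold changes ran from -2.06 ± 0.76 for Selenoo to 1.12 ± 0.60 for Txnrd3 in WT, and from -1.02 ± 0.46 for Selenoh to 1.35 ± 0.67 for Txnrd3 in KO. Selenoh also lay at -1.22 ± 0.44 in WT. Between genotypes none of the 18 was called in Input or in IP by edgeR.

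The length of the transcript moved with the fraction. Over 6591 tested genes, the Spearman correlation of the log2 fold change of IP over Input with transcript length was 0.298 in WT and 0.343 in KO. Over the 33 antioxidant genes it was 0.457 and 0.316. These are descriptions across genes, which share the same libraries and are not independent replicates. The 33 genes have short transcripts, with a median of 1478 bases beside 3089 bases over all tested genes. Selenow has 736 bases and Gpx4 995. Of the genes that rose, Sod2 has a longest transcript of 5861 bases, while Gsta4, which rose in KO, has 977.

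With the trend on length removed from each library, 1 gene was higher and 5 lower in WT, and 6 were higher and 5 lower in KO, where 789 and 884 of all 6591 genes were called. Gpx3, Gpx4, Prdx1, Mgst1 and Selenow still fell in WT and Sod2 rose, with Gpx4 at -0.58 and Sod2 at 0.52 on the log2 scale. In KO, Gpx3, Gpx4, Prdx1, Prdx3 and Selenow fell, and Gsta4, Gstm1, Gsto1, Sod1, Sod2 and Txn1 rose. The median over the 33 genes then was -0.05 in WT and 0.16 in KO, so the direction of the KO median turned. Among the 18 tested selenocysteine genes, 4 fell in WT and 5 in KO after this step, with Selenom lost in WT and Msrb1 and Selenop lost in KO, and the median was -0.08 and -0.23. The 789 and 884 calls over all genes are not split by direction here. The counts of higher and lower genes after this step therefore have no matching share of all genes beside them, and whether they exceed it was not tested.

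**Figure D5:**
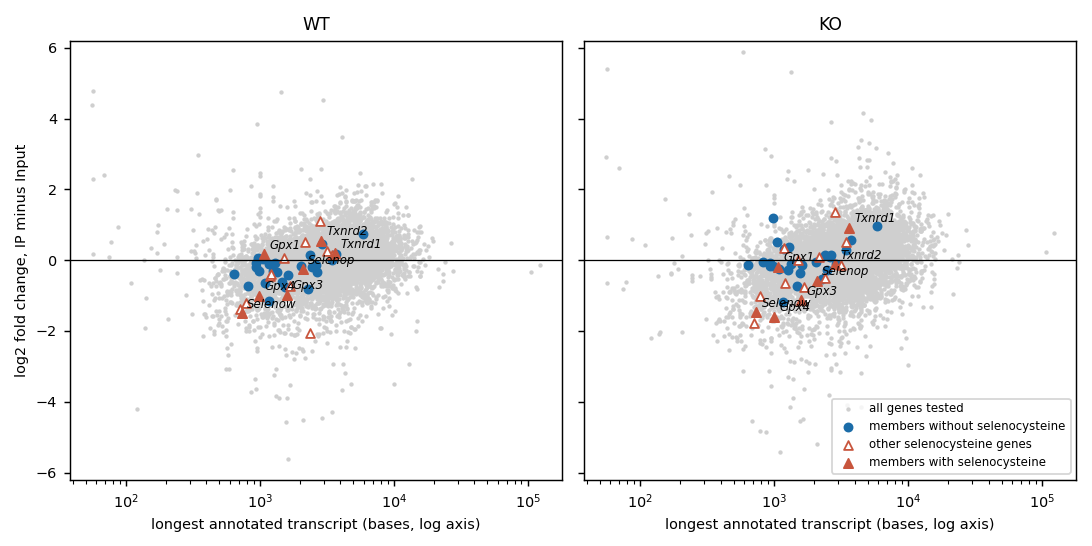
Log2 fold change of IP over Input (vertical axis) against the length of the longest annotated transcript in bases (horizontal log axis) for all tested genes (grey) and the 33 antioxidant genes, with filled triangles for those that carry selenocysteine, circles for those that do not and open triangles for other selenocysteine genes, in WT and in KO. The vertical axis covers -6.2 to 6.2 and leaves out 8 genes in WT and 4 in KO, 0 of them from the set. The short transcripts of Selenow and Gpx4 lie below 0 and the long Sod2 transcript above it, while the short Gsta4 transcript lies at 1.20 in KO.

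Genes that supply or surround these enzymes were taken from 6 further lists with 86 genes, of which 59 were tested. None was called between genotypes in Input or in IP by edgeR or DESeq2, with 7 and 3 at an unadjusted p under 0.05. Between fractions 4 were higher and 4 lower in IP in WT, and 5 were higher and 5 lower in KO by edgeR, where 14.0% and 16.4% of all tested genes were called. These counts of 8 and 10 among 59 are near those shares. DESeq2 called 7 of the 59 in WT and 6 in KO. Among NRF2 partners and targets, Cul3, which encodes the ubiquitin ligase scaffold that works with KEAP1, rose in WT (log2 fold change 0.72 ± 0.23, adjusted p = 0.0390, edgeR) and in KO (0.83 ± 0.26, adjusted p = 0.0284). Epas1, which was placed on that list although it encodes the hypoxia factor HIF-2 alpha, rose in both as well (0.62 ± 0.17 and 0.77 ± 0.18). Its rise is not read as a sign of NRF2. Sqstm1, whose product p62 binds KEAP1, rose in KO from 204, 258 and 179 CPM in Input to 462, 511 and 374 CPM in IP (1.06 ± 0.19, adjusted p = 0.000403, edgeR). In WT Sqstm1 had 0.33 ± 0.18 and was not called.

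The metallothioneins Mt1 and Mt2, small cysteine-rich proteins that bind metals, rose in IP in WT. Mt2 was at 21.4, 21.2 and 22.5 CPM in WT Input and 42.4, 73.7 and 58.9 CPM in WT IP, with no overlap (1.41 ± 0.32, adjusted p = 0.00379, edgeR), and its KO libraries overlapped between fractions (0.21 ± 0.34). Mt1 had 0.64 ± 0.17 in WT (adjusted p = 0.0136) and 0.41 ± 0.18 in KO (adjusted p = 0.121). Of the NADPH suppliers, the mitochondrial isocitrate dehydrogenase Idh2 rose in KO (0.68 ± 0.16, adjusted p = 0.00331) and the pentose phosphate enzyme Tkt fell in WT (-1.62 ± 0.39, adjusted p = 0.00612), where WT Input replicate 3 stood at 148 CPM and the other two at 57.2 and 33.0 CPM. Txndc17, a thioredoxin-like reductase, fell in WT (-1.02 ± 0.24), and Sesn1, of the sestrin family, fell in KO (-1.07 ± 0.23). Msrb3 rose in KO (0.66 ± 0.21), and Pstk, a kinase in the synthesis of selenocysteine, fell in KO (-1.04 ± 0.32). Several of these calls were made by edgeR only. In KO, DESeq2 called 1 gene on the list of Sesn1, Msrb1 and Msrb3 and 2 on that of Pstk, Selenok and Selenom, where edgeR called 3 on each. On the list of NRF2 partners and targets, which includes Epas1, DESeq2 called 1 in WT and 2 in KO, where edgeR called 2 and 3. In none of the 59 genes did the genotypes differ in the ratio of IP to Input by edgeR or DESeq2, with 3 at an unadjusted p under 0.05. For the 33 antioxidant genes that contrast had 4 at an unadjusted p under 0.05 (Gsta4, Gpx4, Gstp1 and Glrx5), none of them called, where 7.02% of all tested genes had such a p.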

How the data were processed

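Deposited files held 1 whole-number count per gene and library, raw counts by their values. Per the submitters' processing notes, minimap2 2.14, DESeq2 1.34.0 and GRCm38 were used. The counting tool and rule are not given in the sources used here. Of 55401 gene IDs, 55141 matched GENCODE M21 (without version) for names, coordinates and the longest transcript, and 38803 were 0 in every library. In R 4.3.3, edgeR 4.0.16 (limma 3.58.1) kept 6596 genes by filterByExpr (minimum count 10, minimum total 15) and fitted its quasi-likelihood model, with TMM factors and 4 group means, to all 12 libraries (common dispersion 0.0333). P values of the 5 contrasts were adjusted by Benjamini and Hochberg, threshold 0.05. The SE is the log2 fold change divided by the square root of F. With 3 libraries against 3 an exact rank test cannot go below p = 0.10, and counting intervals cover counting error only. The test was also run on counts simulated with the common dispersion for every gene, which leaves out differences in spread between genes. Near copies were found with blastn 2.17.0 (at least 90% identity over 200 bases and 50% of the shorter transcript). Alternatives were DESeq2 1.42.0 (size factors, test), library totals, no count filter, a filter of 30 counts in 3 libraries, fits of only the compared groups, the replicate block, globin genes left out, the length trend removed (loess span 0.5) and each library left out. The members and lists were chosen with earlier results of these data known. Genes are named by rule: all members, with per-library values for called ones and the smallest p of a role, called genes of the other lists, and Rpl3l. Selenoo, Selenoh, Txnrd3, Gstp2 and Ccdc152 were added after their values were seen.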

Additional observations from a re-analysis of the deposited data

How the results depend on the processing

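No genotype call was made for any of the 33 genes under any alternative, in Input, in IP or in the ratio of IP to Input. For IP against Input, the number of genes called stayed within 1.5 times the main number. Of the 9 calls in WT, 5 held under every alternative (Gpx3, Gpx4, Prdx1, Selenow and Sod2), and of the 9 in KO, 6 (Gpx3, Gpx4, Gsta4, Prdx3, Selenow and Sod2). The share of all called genes that held in this way is not given here, so these counts have no background. The numbers on the deposited labels gave no sign of pairing the libraries. Same-number correlations ran from -0.115 to 0.0423, and a library matched its own number best in 3 of 36 comparisons, each among 3 libraries. This check covers equal numbers only. Pairing of Input and IP libraries under other numbers was not tested and did not enter any fit. With the replicate number as a block, 15 and 8 genes of all those tested were called between genotypes in Input and IP, 858 and 1009 between fractions in WT and KO, and 4 for the ratio, and of the named calls only Prdx1 in KO was lost (2 higher and 6 lower). Scaling by library totals put the all-gene median for IP against Input at 0.11 in WT and 0.15 in KO, and the median of the 33 genes in KO at 0.02. Without KO IP replicate 2 that median was 0.03. Directions reversed for uncalled genes with few reads or values near 0: leaving out single libraries gave Gsr between genotypes in Input -0.54 to 0.16 (positive without WT Input replicate 2, at 0.09, or KO Input replicate 2), Gsr for IP against Input in KO -0.17 to 0.55 (negative without KO Input replicate 2), Park7 between genotypes in Input -0.29 to 0.07 (positive without KO Input replicate 3), and Nfe2l2 in IP -0.03 to 0.55 (negative without KO IP replicate 2). The cause was not tested. The background counts moved more: between genotypes in Input 12 genes became 77 without a count filter, 5 with the stricter filter, 4 when WT Input replicate 1 was left out and 5 when KO Input replicate 3 was. In IP 6 became 55 without a filter, 11 with DESeq2, 2 when WT IP replicate 1 was left out, and 3 when WT IP replicate 2 was, or KO IP replicate 3. For the ratio 6 became 37 without a filter, 1 when WT Input replicate 1 was left out and 3 when WT IP replicate 3 was. For IP against Input in WT 926 became 602 without WT Input replicate 1. Where a replicate is left out, 2 libraries remain in its group. KO Input replicate 3, with 169359 counts, sets the limit for low genes, at 17.7 CPM for 3 counts before the TMM factor.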

Other observations

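Of 33 relations computed between the log2 level of a tested gene and the log2 globin share of the library, those of Gpx1 and Txnrd2 were the 2 farthest from 0, and were picked for that, so they are given as a description with no p. Over the 12 libraries, Pearson's r was 0.751 for Gpx1 and Spearman's rho 0.795. Without the 2 libraries farthest from the median globin share, r was 0.807, and within fractions of 6 libraries it was 0.650 in Input and 0.849 in IP. For Txnrd2, r was 0.800 and rho 0.841, with r = 0.752 without the 2 farthest libraries, 0.865 in Input and 0.758 in IP. These subsets are drawn from the same 12 libraries, and other genes reached such values in them. Among these were Glrx at -0.829 without the 2 farthest libraries, Nfe2l2 at -0.769 in Input and Gstk1 at 0.846 in IP.

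The antioxidant response element core TGACNNNGC, which NRF2 binds with its partners, was searched on both strands in RefSeq promoter windows from 250 bases before to 50 after the start (GRCm38.p6). Of 32 genes of the set with a window, 6 held it (Prdx1, Sod1, Txnrd1, Gclm, Mgst1 and Nfe2l2), or 18.8%, beside 14% of 27025 genes. Glrx3 shares 99.066% of 964 aligned bases with Gm12669, which took 4.94% to 22.0% of the reads of that pair.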
